A study of Mus musculus with 20 samples.

Results

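Wild-type bone marrow-derived macrophages (BMDMs) that received an airway extracellular vesicle (EV)-enriched fraction were compared with BMDMs that received PBS. The fraction, RNY1+/+ EVFx, came from bronchoalveolar lavage fluid (BALF) of a mouse carrying both RNY1 alleles in which airway inflammation had been induced with ovalbumin (OVA). The comparison took the 4 RNY1+/+ EVFx libraries and the 4 PBS libraries out of 20 libraries in the series. Genes were members when their mean over these 8 libraries reached 3 CPM (a gene's count scaled to a library total of 1000000), which 10797 of the 78317 genes in the table did. The choice used the mean over both groups together, so a gene with no more than 3 counts in every library of one group could be a member only through the other group.

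The series asked how EV-enriched and protein-enriched airway fractions, with or without the Y RNA RNY1, act on macrophage transcription. Its other groups, with 4 libraries each, received EVFx from RNY1-/- mice, whose RNY1 locus was deleted by CRISPR, or the protein-enriched fraction (ProteinFx) of either genotype. Recipient cells were wildtype in every group: marrow of C57BL/6J femurs and tibias from female mice was grown with L929 fibroblast-conditioned medium. At seeding, with 200000 cells per well, the cultures were switched to serum-containing RPMI, with no L929-conditioned medium named, and were used on day 7. Cells were washed and placed in serum-free Opti-MEM before EVFx was added at 35000000 particles/µL, or PBS without particles. EVFx pooled the early fractions of a size exclusion column and was kept cold before use, so the material added is a size class of airway particles and not a purified vesicle. The time between treatment and lysis was not given in the sources used here, nor was it stated whether libraries of one treatment derived from different marrow donors, fraction pools or wells. P-values therefore measure the spread between these libraries, which may be technical. All 20 libraries carried the same batch label.

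Macrophages detect microbial and damage-associated material with Toll-like receptors, C-type lectins, formyl peptide receptors and cytosolic nucleic acid sensors. The signals converge on NF-kB and AP-1, which switch on cytokines, chemokines and their own inhibitors, and on interferon regulatory factors, whose interferon products act through STAT proteins on a broad antiviral set. A separate arm, the transcription factor NRF2, answers electrophiles, oxidants and heme with enzymes for glutathione, thioredoxin and iron handling. In culture with the growth factor CSF1, that factor keeps up phagocytic receptors and a low rate of division. Bulk RNA cannot tell fewer cells of a type from less RNA per cell.

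Gene counts per library were 4372044 to 6473122 for PBS and 4994439 to 8277283 for EVFx, counted as unique molecules at the 3′ ends of polyadenylated transcripts. A gene with no more than 3 counts in a library was taken as under the detection floor, which corresponded to 0.362 to 0.686 CPM. PBS replicate 3 stood apart: the mean squared difference of its counts from those of the other PBS libraries was 24.1 to 49.4 times the variance that counting gives, against 4.47 to 14.1 times between EVFx libraries. The cells carried the macrophage markers of the label. Lyz2, a lysozyme gene of myeloid cells, stood at 8416 ± 1414 CPM (SD, n = 4) in PBS and 4954 ± 435 CPM in EVFx, and Csf1r, the CSF1 receptor, at 275 ± 66.2 and 227 ± 34.0 CPM.

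Differentially expressed genes (DEGs) had an adjusted p under 0.05 in the quasi-likelihood test of edgeR, adjusted after Benjamini and Hochberg, and an absolute log2 fold change above 1. EVFx against PBS gave 890 higher DEGs (8.24% of the genes tested) and 885 lower DEGs (8.2%), together 16.4%. Counts of DEGs in the gene lists below are to be read against these shares. By adjusted p alone 2347 genes were higher (21.7%) and 2462 lower (22.8%). The 4 values of one group lay wholly above or below those of the other for 4694 genes (43.5%), among them 870 of the higher and 825 of the lower DEGs. The rises were the longer tail: 152 higher and 62 lower DEGs moved by more than 3 on the log2 scale, and 40 and 5 by more than 5. Without PBS replicate 3 there were 939 higher and 979 lower DEGs. Of the members, 16 had at most 3 counts in every PBS library and were higher DEGs, and 4 had at most 3 counts in every EVFx library and were lower DEGs, a direction that their membership fixed. Cxcl3, Tarm1, Il12b, Zfp811, Nos2 and Slco2b1 are among them. Counts for gene lists that hold such genes include them. Rises and falls of single genes are given as log2 fold changes wherever no CPM is named. With library totals in place of TMM scaling, which moved the median of all genes by -0.18, there were 738 higher and 1223 lower DEGs.

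**Figure D1:**
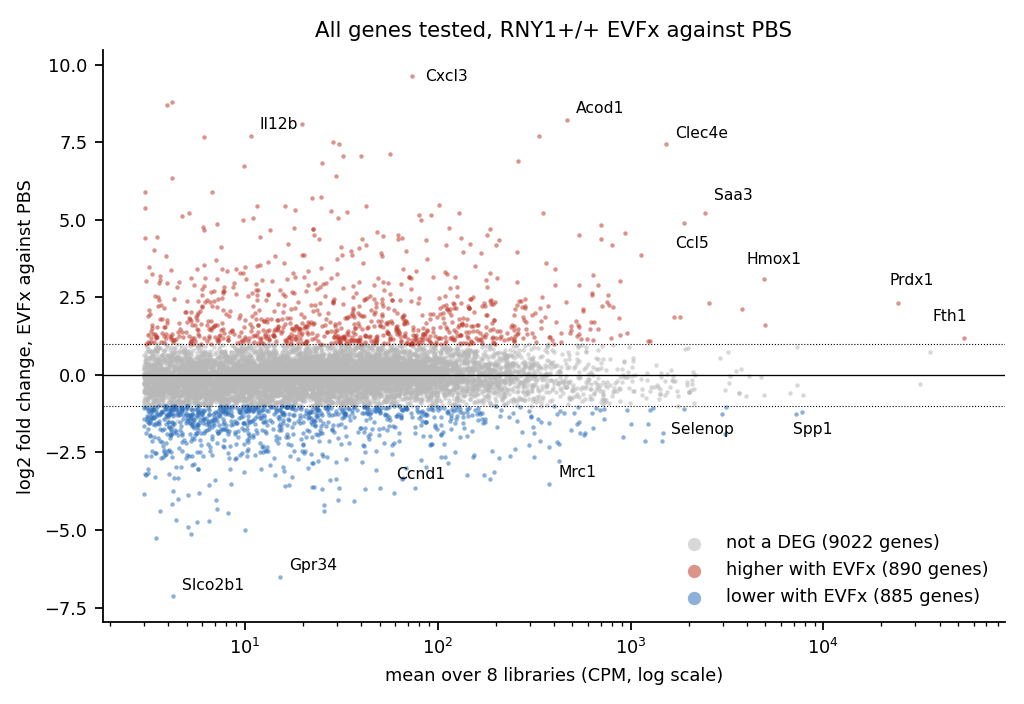
Each point is one of the genes tested, with its mean over the 8 libraries in CPM (horizontal, log scale) against its log2 fold change, RNY1+/+ EVFx against PBS (vertical); red points are the 890 higher DEGs, blue points the 885 lower DEGs and grey points the rest, and dotted lines mark a log2 fold change of 1 and -1. The rises reach 9.64 at Cxcl3 and the falls -7.14 at Slco2b1, and Fth1, Prdx1 and Hmox1 are red at the right edge.

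The changed genes took up a different share of the RNA after treatment. Higher DEGs held 8.79% to 9.71% of the gene counts in the PBS libraries and 27.4% to 29.0% in the EVFx libraries. Lower DEGs held 11.5% to 12.2% in PBS and 3.66% to 3.89% in EVFx. Neither share overlapped between the groups. Both shares are of the genes that the comparison itself called, so they describe the size of the change and carry no test. With genes in 4 equal bins of mean CPM over the 8 libraries, 12.4% were higher and 6.56% lower DEGs in the highest bin. In the lowest bin the shares were 6.71% and 12.9%. This mean includes the EVFx level, so a rise itself lifts a gene's bin and a fall lowers it. The bins therefore cannot show whether rises favour abundant genes.

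**Figure D2:**
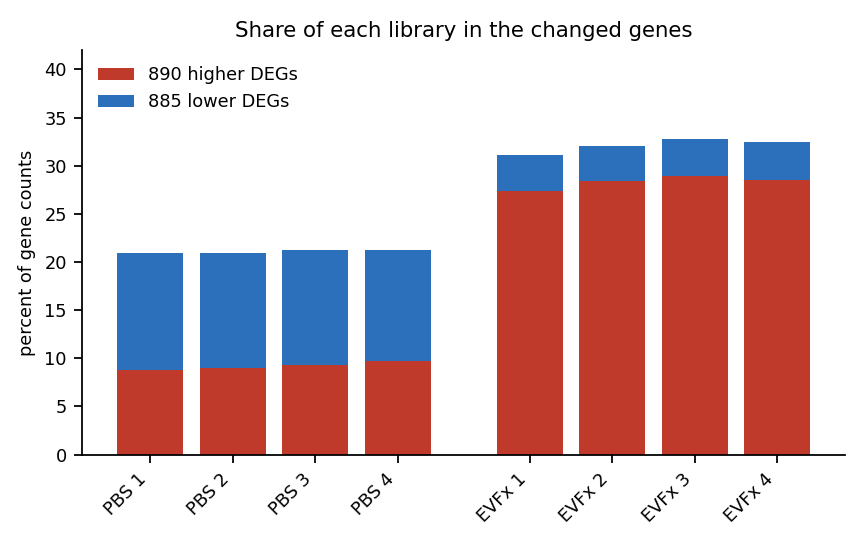
Bars give, for each PBS and RNY1+/+ EVFx library, the percent of its gene counts in the 890 higher DEGs (red) and the 885 lower DEGs (blue). The red part is 8.79% to 9.71% in PBS and 27.4% to 29.0% in EVFx, and the blue part falls from 11.5% to 12.2% to 3.66% to 3.89%.

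The 15 largest rises at a mean of at least 10 CPM were, in order, Cxcl3, Acod1, Tarm1, Il12b, H2-M2, Zfp811, Fpr1, Clec4e, Fpr2, Plpp1, Slc13a3, Cxcl2, Il1b, Ptgs2 and Cd69. Cxcl3, a ligand of the neutrophil receptor CXCR2, was at 0.205, 0, 0.457 and 0.178 CPM in PBS replicates 1 to 4 and at 86.7, 113, 246 and 145 CPM in the EVFx replicates. No PBS library passed the detection floor and every EVFx library stood far above it. The summed counts differed by a ratio of 736 (95% counting interval 287 to 2703). The fit gave 9.64 on the log2 scale, with a standard error (SE) of 0.56. Membership fixed the direction of this rise, so these values give its size only. Cxcl2, its neighbour with the same receptor, went from 4.51, 5.25, 4.35 and 5.16 CPM to 388, 418, 658 and 602 CPM, so the PBS libraries lay close together while EVFx replicates 3 and 4 exceeded replicates 1 and 2. Cxcl1, the third of these ligands, averaged 1.12 ± 0.452 CPM (SD, n = 4) in PBS and 25.9 ± 7.53 in EVFx.

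Of 8 genes tested in the list of CXC chemokines and receptors, 6 were higher and 1 was lower, with a median log2 fold change of 4.91 against -0.03 over all genes tested. Cxcl9 and Cxcl10, ligands of the T cell receptor CXCR3 and known interferon targets, rose by 5.46 and 5.15 on the log2 scale, and Cxcl16 by 2.32. Cxcr4, the receptor for CXCL12, was the member that fell, at -2.50. Pf4, a platelet-type chemokine also made by macrophages, did not pass at 1002 ± 196 CPM in PBS and 854 ± 84.8 CPM in EVFx.

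The promoter windows of Cxcl3 and Cxcl2 are shown because they held a match to the NF-kB motif, which 4.51% of all 32851 RefSeq promoter windows did. The windows run from 250 bases before to 50 bases after the RefSeq start on GRCm38.p6: Cxcl3 at chr5:90785851-90786150, + strand, and Cxcl2 at chr5:90903649-90903948, + strand. Capitals mark the matches, read on both strands, and windows were found for 7699 of 10767 genes tested that have a symbol of their own.
Cxcl3: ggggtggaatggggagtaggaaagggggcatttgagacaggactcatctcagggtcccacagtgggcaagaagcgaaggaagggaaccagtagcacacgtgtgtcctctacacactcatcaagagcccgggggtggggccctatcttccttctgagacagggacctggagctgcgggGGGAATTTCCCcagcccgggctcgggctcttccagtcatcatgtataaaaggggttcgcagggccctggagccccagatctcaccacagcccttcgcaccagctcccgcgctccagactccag
Cxcl2: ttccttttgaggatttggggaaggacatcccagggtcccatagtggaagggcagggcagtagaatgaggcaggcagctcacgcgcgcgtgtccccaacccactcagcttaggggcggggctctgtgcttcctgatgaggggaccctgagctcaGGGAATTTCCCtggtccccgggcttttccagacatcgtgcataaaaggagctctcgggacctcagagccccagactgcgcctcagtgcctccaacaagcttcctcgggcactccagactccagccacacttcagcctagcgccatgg

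H2-M2, an atypical MHC class I gene, was the only other one of the 15 largest rises with an NF-kB match in its window. It was at 5.33, 2.01, 4.57 and 3.03 CPM in PBS and 539, 468, 799.9 and 869 CPM in EVFx, where replicates 3 and 4 were again the highest. Across windows of tested genes, the NF-kB motif was found in 8.75% of 834 windows of higher DEGs, 4.56% of 833 windows of lower DEGs and 4.90% of 8166 windows of the other genes tested. The AP-1 motif TGANTCA stood in 9.23%, 6.96% and 4.54% of the same windows and in 7.81% of all promoter windows. These shares describe the letters of the windows and say nothing of binding.

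CC chemokines moved in both directions. Ccl5, which attracts T cells and eosinophils, was at 195, 161, 71.6 and 126 CPM in PBS and 4160, 3786, 2552 and 4069 CPM in EVFx, or 4.89 on the log2 scale (SE 0.31). PBS replicate 3 and EVFx replicate 3 were the lowest of their groups, and the groups did not overlap. Ccl3 and Ccl12 rose by 2.36 and 2.44, while Ccl2 and Ccl7, the main monocyte attractants, averaged 91.5 ± 34.0 and 81.9 ± 26.6 CPM in PBS and 107 ± 54.6 and 65.0 ± 35.8 CPM in EVFx, with adjusted p = 0.39 and 0.78 by edgeR. Receptors for CC chemokines fell: Ccr1 at -2.54, Ccr2 at -2.41 and Ccr3 at -2.97. With Ccrl2, a chemokine-binding receptor that does not signal, at 2.43, and Ccl6 at -2.24, the list of 14 tested genes held 4 higher and 5 lower DEGs.

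Among cytokines, 10 of 18 tested genes rose and 3 fell, with a median log2 fold change of 1.57. Il1b, the inflammasome-processed interleukin, was at 0, 0.463, 0.915 and 0.534 CPM in PBS and 41.4, 48.8, 51.3 and 57.1 CPM in EVFx. Tnf was at 6.35, 6.95, 3.89 and 4.98 CPM in PBS and 149, 147, 137 and 204 CPM in EVFx, or 5.00 on the log2 scale (SE 0.20). Il12b, the shared subunit of interleukins 12 and 23, had counts in 1 PBS library only and stood at 24.9, 17.3, 20.6 and 23 CPM in EVFx. For these 3 genes the highest PBS library remained below the lowest EVFx library by a wide margin. In Il12b the direction was fixed by membership.

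Il1a rose by 3.92, Tnfsf15 by 3.47, Il27 by 2.84 and Ebi3, the gene of the other subunit of IL-27, by 1.81. The inhibitor Il1rn rose as well, from 45.6 ± 8.30 to 129 ± 18.5 CPM (SD, n = 4). Igf1, a trophic factor of resting macrophages, was the largest loss among the cytokines in absolute level, from 1979 ± 273 to 401 ± 22 CPM, and Il16 and Pdgfb fell, at -2.47 and -1.27. The other 16 of the 34 listed cytokines, Il6, Il10, Il12a and Il23a among them, were below the CPM limit.

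**Figure D3:**
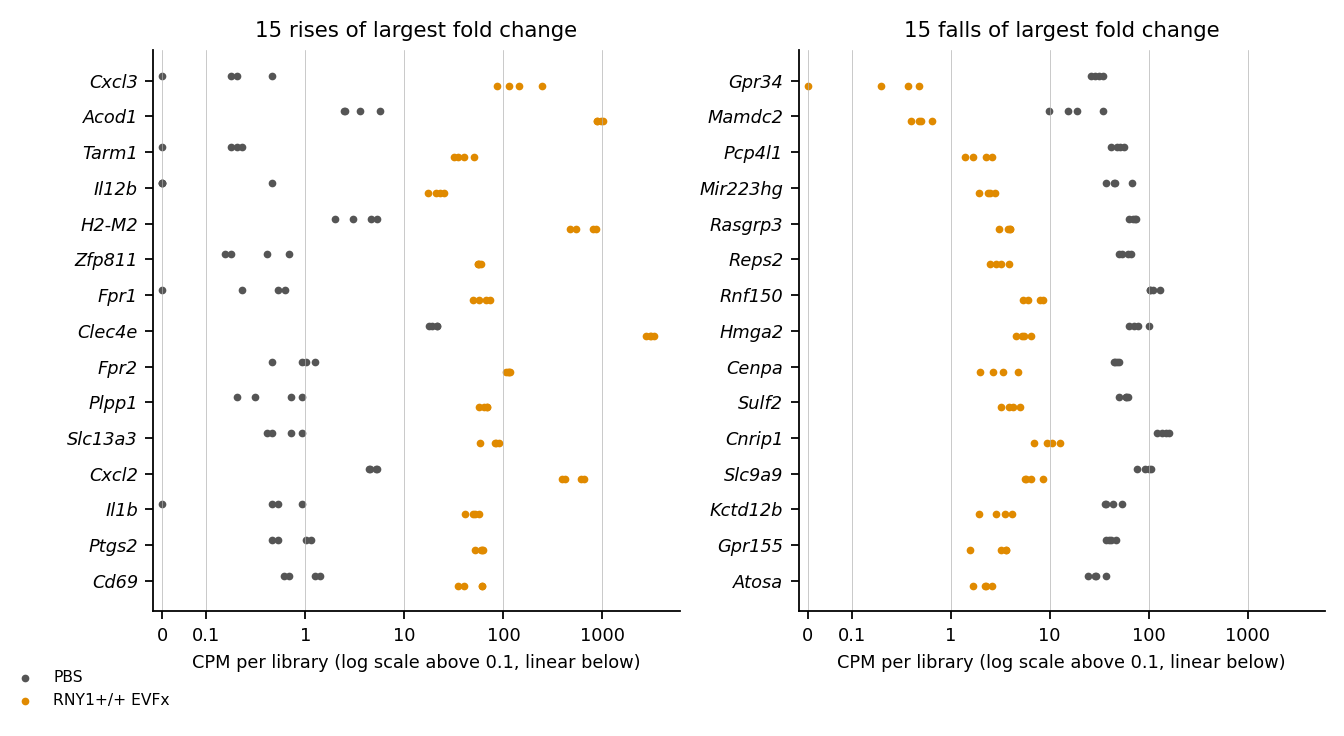
Points give the CPM of each of the 4 PBS (grey) and 4 RNY1+/+ EVFx (orange) libraries for the 15 rises and 15 falls of largest log2 fold change with a mean of at least 10 CPM; the axis is a log scale above 0.1 CPM and linear below. The genes were picked for having no overlap between the groups, so the gap in each row follows from the choice; Cxcl3 is at 86.7 to 246 CPM in EVFx and Gpr34 at 26.2 to 34.3 CPM in PBS.

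Receptors for microbial and damage-associated ligands split into a rising and a falling set, 14 and 3 of 29 tested. Clec4e encodes Mincle, a lectin that binds mycobacterial glycolipid and a protein of dead cells. It was at 21.3, 18.8, 21.5 and 17.8 CPM in PBS and at 2732, 3090.2, 3292 and 3032 CPM in EVFx, which the fit put at 7.44 on the log2 scale (SE 0.14, adjusted p = 1.8e-10 by edgeR). Both groups were tight, and no library came near the other group. Fpr1 and Fpr2, receptors for N-formyl peptides of bacteria and mitochondria, rose from 0.345 ± 0.284 and 0.912 ± 0.329 CPM to 61.5 ± 10.2 and 113 ± 4.68 CPM (SD, n = 4). Marco, a scavenger receptor typical of alveolar macrophages, rose by 5.22.

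The Toll-like receptors did not share a direction. Tlr1 and Tlr2 rose by 2.46 and 1.72, and Cd14, the co-receptor that hands lipopolysaccharide to TLR4, by 1.43. Tlr3 was called at 1.14, and not with library totals (0.96) or with counts thinned to the smallest library (0.99). Tlr8 and Tlr13, endosomal sensors of RNA, fell, at -1.38 and -1.21, and the fungal glucan receptor Clec7a at -1.67. Tlr4 itself went from 62.6 ± 8.56 to 36.6 ± 1.66 CPM, which at -0.59 on the log2 scale did not reach the limit.

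Of 43 tested genes in the list of NF-kB subunits and feedback genes 28 were higher and none lower, with a median of 1.68. The list also counts Acod1, which is neither and which stands in the list with itaconate metabolism too. Its counts therefore do not stand for subunits and inhibitors alone. Nfkbia, which encodes the inhibitor IkBa and is itself a direct NF-kB target, was at 138, 133, 133 and 147 CPM in PBS and 1142, 1214, 1094 and 1114 CPM in EVFx, or 3.23 on the log2 scale (SE 0.10). Values within each group stayed close and the groups were far apart.

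Nfkbiz, a nuclear co-activator, rose by 4.38, Traf1 by 3.86, Birc3 by 2.81 and the deubiquitinase gene Tnfaip3 by 1.98. The subunit genes Nfkb2 and Relb of the non-canonical pathway rose by 1.59 and 1.42. Rela, Nfkb1, Rel and the kinase gene Ikbkb had log2 fold changes of -0.09, 0.34, 0.44 and 0.36, none past the limit. Saa3, an acute-phase protein of macrophages, rose from 144 ± 63.6 to 4713 ± 782 CPM, and Sod2, the mitochondrial superoxide dismutase, from 84.2 ± 7.12 to 1782 ± 120.0 CPM.

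Immediate early genes of the AP-1 and EGR families went partly the other way, with 7 higher and 8 lower of 27 tested. Batf and Maff rose by 3.75 and 3.56, and Atf4, the factor of the integrated stress response, by 2.21. Fos fell from 150.0 ± 49.4 to 33.6 ± 3.37 CPM, Egr1 and Egr2 at -1.64 and -1.80, and Dusp6, a phosphatase induced by ERK signalling, at -1.66.

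The interferon-stimulated genes moved almost as one. Of 48 tested antiviral effectors 46 were higher and none lower (background 8.24% and 8.2%), with a median log2 fold change of 2.28. Isg15, a ubiquitin-like protein conjugated to viral and host targets, was at 65.8, 66.0, 27.0 and 43.8 CPM in PBS and 1245, 1064, 737 and 1093 CPM in EVFx. Ifit1, which binds uncapped viral RNA, was at 94.3, 71.7, 112 and 96.6 CPM in PBS and 1837, 1685, 1211 and 1273 CPM in EVFx. In both genes EVFx replicate 3 was the lowest of its group, and it was still far above every PBS library.

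Rsad2, or viperin, rose from 163 ± 4.42 to 2113 ± 668 CPM (SD, n = 4), Oasl1 by 4.42 on the log2 scale, Mx1 by 4.21 and Isg20, an RNA exonuclease, by 4.62. Only Samhd1, at 0.99, and Ifi27l2a, at -0.15, were not called among the effectors tested. Samhd1 passed the limit without PBS replicate 2 or 4 (1.00 and 1.03) or EVFx replicate 3 or 4 (1.06 and 1.00). All 15 interferon-inducible GTPases tested rose, with a median of 3.61. These proteins attack the membranes of vacuoles that hold pathogens. Gbp2 was at 21.7, 21.9, 15.1 and 23.7 CPM in PBS and 787, 729.6, 519 and 690.2 CPM in EVFx, and Gbp5 rose by 5.30, Igtp by 2.61 and Irgm1 by 1.73. Tgtp1 and Tgtp2 are near-identical and their counts share reads.

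The interferon-stimulated response element (ISRE), searched as GAAANNGAAA on both strands, stood in 9 of 10 promoter windows of the GTPases tested and in 21 of 43 windows of the antiviral effectors. It stood in 3.44% of all promoter windows, in 9.35% of those of higher DEGs, 3.72% of lower DEGs and 2.67% of the other genes tested. None of the 15 largest rises held one in its window, and Plpp1 and Cd69 had no window. The windows of Isg15 (chr4:156200769-156201068, - strand) and Gbp2 (chr3:142620413-142620712, + strand) are shown as those of abundant interferon-stimulated genes with a match, in capitals.
Isg15: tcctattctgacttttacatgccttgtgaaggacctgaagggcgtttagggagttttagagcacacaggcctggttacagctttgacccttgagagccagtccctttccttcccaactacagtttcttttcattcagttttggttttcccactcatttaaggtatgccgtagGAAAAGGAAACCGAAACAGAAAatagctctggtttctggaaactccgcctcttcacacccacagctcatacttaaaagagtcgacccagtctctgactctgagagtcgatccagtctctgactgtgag
Gbp2: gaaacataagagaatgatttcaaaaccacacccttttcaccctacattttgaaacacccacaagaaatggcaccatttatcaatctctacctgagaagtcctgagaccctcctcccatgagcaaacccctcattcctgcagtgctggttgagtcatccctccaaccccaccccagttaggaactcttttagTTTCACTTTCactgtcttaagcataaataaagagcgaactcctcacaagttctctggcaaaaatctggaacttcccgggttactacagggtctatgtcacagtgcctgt

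Of 26 tested genes of interferon signalling 9 were higher and none lower, with a median of 0.59, and the risers included STAT and IRF genes that interferon is known to induce. Irf7 rose by 2.36, Stat2 by 2.23 and Jak2 by 2.40. Socs3, a feedback inhibitor of cytokine receptors, rose from 0.823 ± 0.229 to 31.5 ± 4.03 CPM. The receptor genes Ifnar1, Ifnar2 and Ifngr1 had log2 fold changes of 0.38, 0.28 and -0.53, and Irf8 had -0.97, which passed the limit without PBS replicate 3 or without EVFx replicate 4. Transcripts of the interferons themselves were at the edge of detection: Ifnb1 had no count in any PBS library and at most 2 counts in an EVFx library, and Ifng was at 0 throughout. A count of 0 allows up to 3 counts, or 0.362 to 0.686 CPM, so a low level was not detectable at this depth.

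Of 23 tested genes of MHC class I and the immunoproteasome 18 were higher and none lower, with a median of 1.61. H2-K1, a classical class I heavy chain, was at 2835, 2589, 2529.6 and 2762 CPM in PBS and 7556, 7547, 7081 and 6907 CPM in EVFx. The nonclassical H2-Q7 rose by 5.46, the peptide transporter Tap1 by 2.13, and the immunoproteasome subunits Psmb8, Psmb9 and Psmb10 by 1.76, 1.28 and 1.5. B2m, the invariant light chain, had a log2 fold change of 0.89 with adjusted p = 3e-05 by edgeR and did not reach the limit. Standard proteasome subunits followed in a smaller way: 6 of 34 tested were higher DEGs and none lower, and 28 were higher by adjusted p alone (median 0.70).

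Genes of MHC class II had a summed level of 3851 to 5582 CPM in PBS and 3901 to 4205 CPM in EVFx. H2-Ab1 rose from 8.42 ± 1.24 to 21.0 ± 2.96 CPM and the ubiquitin ligase gene Marchf1, which removes class II from the surface, from 36.2 ± 6.80 to 85.3 ± 5.45 CPM, the 2 higher DEGs of 9 tested, and without PBS replicate 1 there were 4. Molecules that engage T cells rose in 14 of 23 cases and fell in 2. Of the rises, 4 had at most 3 counts in every PBS library, so membership fixed their direction. Cd40 rose by 3.45, Cd274, the checkpoint ligand PD-L1, from 28.4 ± 7.05 to 284 ± 56.2 CPM, the activation marker Cd69 by 5.73 and Tarm1, an activating receptor of myeloid cells, by 8.10 from a PBS level under the detection floor. Havcr2, or TIM-3, and Vsir fell, at -2.92 and -1.08, while Cd80 and Cd86 had log2 fold changes of -0.18 and 0.97. Cd86 passed the limit without PBS replicate 1 (1.04), EVFx replicate 3 (1.01) or EVFx replicate 4 (1.08).

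Acod1, which makes itaconate from a citric acid cycle intermediate, was at 2.46, 3.55, 5.72 and 2.49 CPM in PBS and 883, 972, 875 and 1006 CPM in EVFx, so the 4 treated libraries lay close together and far from the PBS libraries. Nos2, the inducible nitric oxide synthase, went from 0.224 ± 0.177 to 13.4 ± 6.54 CPM. It had at most 3 counts in every PBS library, so membership fixed its direction. Ass1, which recycles citrulline to arginine, went from 1.90 ± 0.255 to 59.0 ± 16.5 CPM. The list of arginine, itaconate and tryptophan metabolism held 7 higher and no lower DEGs of 10 tested. Of 16 tested eicosanoid enzymes and receptors 5 were higher, 3 lower and 8 not called, with a median of 0.06. Ptgs2 and Ptges rose by 6.42 and 5.33, while Ptgs1, the constitutive cyclooxygenase, fell, at -3.50 and the prostaglandin D and thromboxane synthases Hpgds and Tbxas1 at -1.42 and -1.18. Glycolysis moved less, with 4 of 21 genes higher, among them Slc2a1 and Pfkfb3 at 1.48 and 1.39. Without PBS replicate 3 the list held 2 higher DEGs.

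Of 23 tested NRF2 and iron genes 17 were higher and 1 was lower, with a median of 1.64. Hmox1, heme oxygenase 1, which opens the heme ring and frees iron, was at 1125, 1038, 1075 and 1411 CPM in PBS and 8177, 7894, 9180.3 and 9591 CPM in EVFx, which the fit put at 3.08 on the log2 scale (SE 0.14, adjusted p = 3.7e-08 by edgeR). Prdx1, a peroxiredoxin, was at 7052, 7131, 11485 and 10571 CPM in PBS and 34619, 37668, 48355 and 38695 CPM in EVFx. PBS replicates 3 and 4 were higher than replicates 1 and 2 in this gene, and all were far below the lowest EVFx library. Slc7a11, the cystine importer that feeds glutathione synthesis, was at 3.07, 2.94, 5.95 and 8.36 CPM in PBS and 136, 168, 264 and 228 CPM in EVFx.

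Glutathione and thioredoxin genes rose with them. The ligase subunits Gclm and Gclc rose by 3.04 and 1.70, Gsr by 2.06, Txnrd1 by 2.15, Srxn1 by 2.28 and Nqo1 by 2.74. Sqstm1, the selective autophagy receptor p62, rose from 178 ± 43.5 to 1178 ± 161 CPM (SD, n = 4). Nfe2l2, which encodes NRF2, was at 389 ± 86.3 CPM in PBS and 344 ± 19.6 CPM in EVFx, a difference of 0.00 on the log2 scale. Spic, a transcription factor of iron-recycling macrophages, was at 6.56, 5.36, 3.20 and 4.51 CPM in PBS and 79.6, 83.8, 73.0 and 84.2 CPM in EVFx.

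Iron storage and transport genes did not move alike. Fth1, the ferritin heavy chain, was the most abundant of the higher DEGs, at 34565, 36437, 34180 and 37058 CPM in PBS and 64499, 70457, 76304 and 73886 CPM in EVFx. Its counts share reads with a pseudogene entry, Fth1-ps, which varied between 462, 517, 275 and 2468 CPM in PBS, so the split between both is uncertain. Ftl1, the light chain, was at 2898, 3265, 717 and 1842 CPM in PBS and 1878, 1798, 1733 and 2802 CPM in EVFx, groups that overlapped. The iron importers Slc11a1 and Slc11a2 rose by 1.32 and 1.64, Tfrc, the transferrin receptor, fell by 1.44, and Slc40a1, the iron exporter ferroportin, had a log2 fold change of -0.78, from 323 ± 37.5 to 166 ± 6.66 CPM.

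Of 24 tested genes of cholesterol synthesis and uptake 15 were higher and none lower, with a median of 1.36, and without PBS replicate 3 there were 18. Fdps, which makes farnesyl diphosphate, was at 52.2, 60.1, 43.5 and 50.4 CPM in PBS and 160.3, 159, 149 and 182 CPM in EVFx. Mvd rose by 3.08, Lss by 2.45 and Fdps by 1.83. Scd1 and Scd2, which desaturate fatty acids, rose by 2.98 and 2.21. Genes of efflux and storage did not follow: Abca1 and Abcg1 had log2 fold changes of -0.72 and -0.44, and Plin2, a coat protein of lipid droplets, fell by 1.86. Apoe, which loads cholesterol onto particles, was called at -1.05, and not without PBS replicate 1 or PBS replicate 2 (-0.88 in each case) or without EVFx replicate 3 (-0.93).

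**Figure D4:**
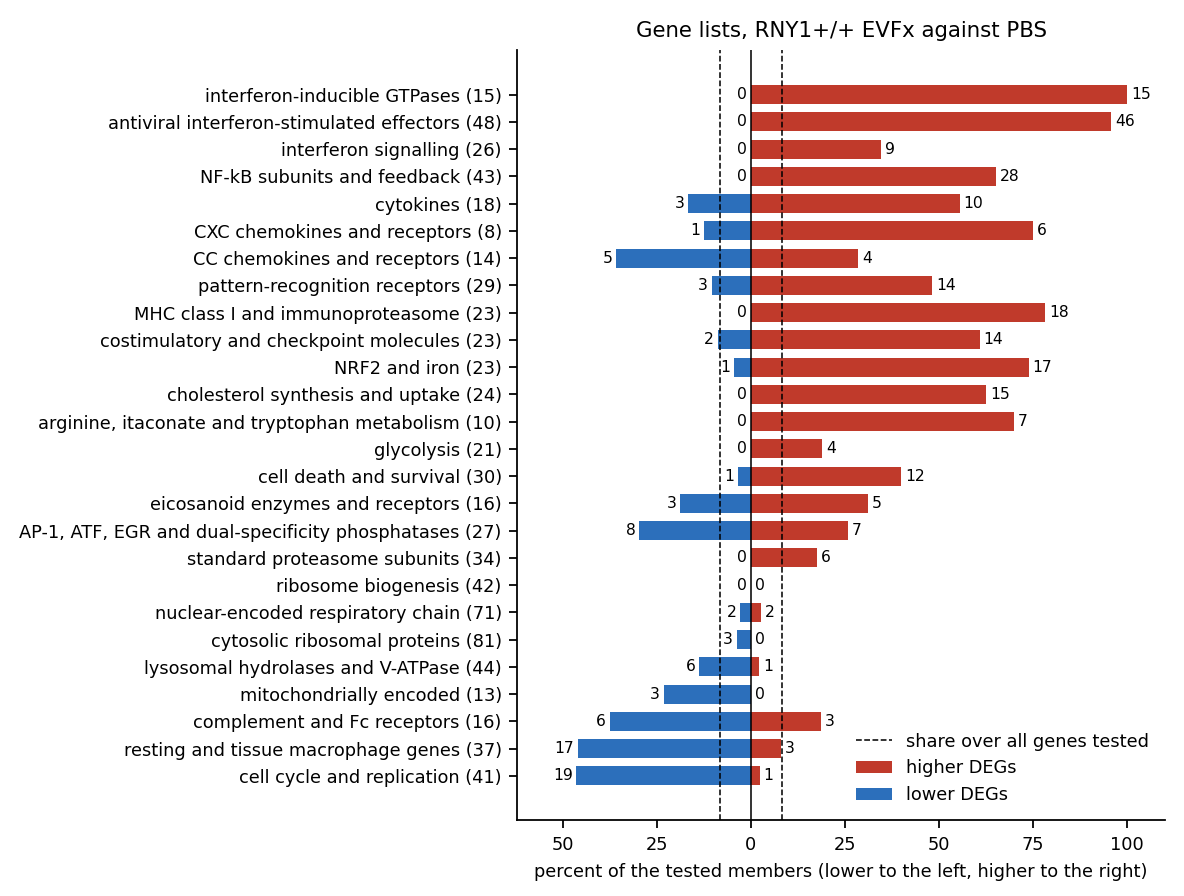
Bars give the percent of tested members of each gene list (number tested in brackets) that were higher DEGs (red, to the right) or lower DEGs (blue, to the left) in RNY1+/+ EVFx against PBS, with the number of genes at each bar and dashed lines at the share over all genes tested, 8.24% and 8.2%. The interferon-inducible GTPases reach 15 of 15 on the right, and the cell cycle list reaches 19 of 41 on the left.

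Gpr34, a lysophosphatidylserine receptor of microglia and other tissue macrophages, was the largest of the falls at a mean of at least 10 CPM. It was at 31.6, 28.6, 34.3 and 26.2 CPM in PBS and 0, 0.375, 0.200 and 0.483 CPM in EVFx, with at most 4 counts in an EVFx library. Slco2b1, an organic anion transporter named here after its values were seen, averaged 8.47 CPM in PBS and had a single count among the EVFx libraries, a counting ratio of 244.6 (95% counting interval 43.3 to 9713). Membership fixed the direction of this fall. Mrc1, the mannose receptor CD206, was at 649, 592, 968 and 609 CPM in PBS and 60.4, 57.4, 53.9 and 45.4 CPM in EVFx, or -3.52 on the log2 scale (SE 0.18). PBS replicate 3 was the highest in Mrc1, and even the lowest PBS library was far from the EVFx libraries.

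Of 37 tested genes of resting and tissue macrophages 17 were lower and 3 higher, with a median of -0.84. The transcription factor genes Mef2c and Klf2 fell, at -1.73 and -1.78. Trem2, a lipid receptor of phagocytes, fell, at -2.26, Gas6, the bridging ligand of MERTK and AXL, at -2.65, Selenop at -2.12 and Stab1 at -2.01. The complement genes C1qb and C1qc fell, at -1.21 and -1.13. Neither was called without PBS replicate 1 (-0.97 and -0.95) or without PBS replicate 2 (-1.02 and -0.96), and C1qb was not without EVFx replicate 3 (-1.07), where its adjusted p was 0.0594 by edgeR. Adgre1, the F4/80 antigen, went the other way, from 859 ± 116 to 2765 ± 47.8 CPM, as did Cebpb at 2.24. Csf1r at -0.10 and the lineage factor Spi1 at 0.26 were not called.

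The remaining genes of the 15 largest falls are not in the lists of macrophage function used here, apart from the transporters. Mamdc2, Pcp4l1, Rasgrp3, Reps2, Rnf150, Hmga2, Sulf2, Cnrip1, Slc9a9, Kctd12b, Gpr155 and Atosa stood at 19.6 to 142 CPM on average in PBS and 0.508 to 9.94 CPM in EVFx. Separation of the groups was a condition for these 15, so it is no result about them. Mir223hg, the host transcript of a microRNA of myeloid cells, fell from 48.9 ± 13.2 to 2.40 ± 0.357 CPM. Its counts stand for the host transcript, not for the microRNA.

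Spp1, or osteopontin, was at 9965, 9644, 14989 and 9946 CPM in PBS and 4259, 4142, 4755 and 3994 CPM in EVFx, with PBS replicate 3 above the rest. Lpl, lipoprotein lipase, fell from 10495 ± 3107 to 3902 ± 562 CPM (SD, n = 4), Cd36, a fatty acid and oxidised lipid receptor, at -1.88, Lgals3 at -1.91 and the nuclear receptor Pparg at -2.19. Gpnmb had a log2 fold change of -1.03, which was -0.95 without PBS replicate 2 and also under the limit without PBS replicate 1 or without EVFx replicate 3.

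Genes assigned to alternative activation went both ways by count, with 3 higher and 4 lower of 13 tested. The summed level of the 24 listed genes was 2099 to 3370 CPM in PBS and 730 to 880 CPM in EVFx. Mrc1, at -3.52, is not in this list. Slc7a2 and Il13ra1 rose by 1.61 and 1.35, and Clec10a fell by 2.68. Arg1, Retnla and Ccl24 were below the CPM limit. Among lysosomal genes 6 of 44 tested were lower DEGs and 1 was higher, and 20 were lower by adjusted p alone against 6 higher, with a median of -0.37. Ctsd, cathepsin D, was at 5825, 5878, 2090.2 and 3659 CPM in PBS and 1596, 1414, 1367 and 2062 CPM in EVFx, so PBS replicate 3 came near the highest EVFx library. Ctsl fell by 1.09, and Ctsc, which activates the serine proteases of granules, was the higher DEG, at 2.12. Complement receptors fell, C5ar1 at -1.93 and C5ar2 at -2.17, whereas C3 and Cfb rose by 3.4 and 4.71, and Fcgr3 fell, at -2.37.

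Of 41 tested cell cycle and replication genes 19 were lower and 1 was higher, with a median of -0.87. Ccnd1, the cyclin through which CSF1 drives entry into the cycle, was at 295, 270.5, 256 and 219 CPM in PBS and 29.2, 30.1, 19.8 and 19.8 CPM in EVFx. Cenpa, the centromeric histone, fell, at -3.66, the ribonucleotide reductase gene Rrm2 at -2.68, Mcm5 of the replicative helicase at -2.63 and Ccna2 at -2.61. Cdkn1a, the inhibitor p21, was the member that rose, from 266 ± 90.1 to 520.0 ± 85.7 CPM, but it was not called without PBS replicate 3, at 0.95 on the log2 scale. Mki67 had 14.3 ± 7.42 CPM in PBS and 11.8 ± 1.58 CPM in EVFx and was not called.

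Genes of cell death and survival rose in 12 of 30 cases and fell in 1. The anti-apoptotic Bcl2a1a and Cflar rose by 3.01 and 2.39, and so did effectors of lytic death: Mlkl by 2.33, Gsdmd by 1.38, Casp1 by 1.19 and Casp4 by 2.47. Bcl2l11, the pro-apoptotic BIM, fell by 1.22. Fas rose by 2.91, which also stands in the list of p53 targets, where 5 of 20 were higher and 2 lower. Matrix genes moved in both directions, with Mmp14 and F10 higher by 4.52 and 2.96 and Mmp12, Timp2 and F13a1 lower, at -1.59, -1.76 and -3.0.

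Mitochondrial and ribosomal genes shifted by small amounts. Of 13 mitochondrially encoded genes 12 were lower by adjusted p and 3 were lower DEGs, with a median of -0.77. The nuclear-encoded respiratory chain had 2 higher and 2 lower DEGs of 71 (median -0.28), and cytosolic ribosomal proteins 3 lower of 81, with 53 lower by adjusted p (median -0.51). Without PBS replicate 3 there were 14 lower DEGs among ribosomal proteins and 4 in the respiratory chain, and without EVFx replicate 1 or EVFx replicate 4 the ribosomal proteins had 5. Ribosome biogenesis genes had no DEG among 42 by edgeR, 15 higher and none lower by adjusted p alone, and a median of 0.29. The share of gene counts from all mitochondrial entries of the table, those beyond the 13 genes included, was 5.58% to 7.32% in PBS and 3.80% to 4.99% in EVFx.

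Of 170 solute carriers tested 32 were higher (18.8%) and 12 lower (7.06%), against 8.24% and 8.2% of all genes tested. The share of falls was thus near that of all genes. This list was drawn up after values were seen. Slc13a3, a dicarboxylate and citrate importer, rose from 0.626 ± 0.24 to 79.3 ± 14.3 CPM (SD, n = 4), and Slc2a6, a lysosomal hexose carrier of inflammatory macrophages, from 4.81 ± 1.14 to 73.1 ± 11.1 CPM. Slc46a3 and Slc9a9, of lysosomes and endosomes, fell, at -2.82 and -3.63.

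Of 553 long noncoding RNAs tested 10.1% were higher and 11.6% lower DEGs, against 8.37% and 8.18% of 9498 coding genes. AW112010, which is induced in activated myeloid cells, rose from 53.6 ± 6.98 to 1357 ± 285 CPM, and ENSMUSG00000135102, an entry without a name, by 5.71. The Y RNAs themselves are not polyadenylated and are not measured well by this method. Rny1 had no count in PBS and 1 to 1.5 counts in each EVFx library, under the detection floor. Among genes of Y RNA binding and vesicles 1 of 13 was called, a lower DEG (7.69%, near the 8.2% of all genes tested). Cd9, a tetraspanin, was that gene and fell by 1.51, while Ro60 and Ssb, the Ro and La proteins, had log2 fold changes of -0.79 and 0.17.

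Of the markers of other cells that were tested, only Marco was a higher DEG. Of 14 neutrophil markers 6 were tested and 3 were lower, none higher, with summed levels of 353 to 374 CPM in PBS and 176 to 232 CPM in EVFx, most of it from S100a8 and S100a9 (158 and 130 CPM on average in PBS, 102 and 59.9 CPM in EVFx), and the defining Ly6g was at 0. Of 11 fibroblast and endothelial markers 5 were tested and none was called, with summed levels of 46.5 to 76.0 CPM in PBS and 45.4 to 59.1 CPM in EVFx, but Kdr had an adjusted p of 0.0042 by edgeR at 0.95 on the log2 scale, with 4.80 to 8.65 CPM in PBS and 9.81 to 15 CPM in EVFx. Kdr passed the limit without PBS replicate 2 (1.06), EVFx replicate 3 (1.02) or EVFx replicate 4 (1.04). Of 20 epithelial markers 2 were tested and neither was called, and Sftpc was at 0 in all 8 libraries. Of 16 alveolar macrophage and dendritic cell markers Marco and Chil3 were tested. Of 10 eosinophil markers only Ccr3 was tested, and of 16 lymphocyte markers Ighm and Cd4, with Ighm lower, at -2.18. Epx and Il5ra had no count in any of the 8 libraries. Rab14, Arpc2 and Cltc, used as reference genes, had log2 fold changes of 0.14, -0.08 and -0.09.

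EVFx was also compared directly with ProteinFx of the same genotype. ProteinFx was dosed by protein, at 0.75 µg/µL, and EVFx by particles, so the doses are not matched. Of 10442 genes tested 712 were higher with EVFx (6.82%) and 701 lower (6.71%), and with scaling to Rab14, Arpc2 and Cltc the numbers were 927 and 566. The contrast uses the same 4 EVFx libraries as the comparison with PBS, so both move with them.

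Of the NRF2 and iron genes 16 of 23 were higher with EVFx and 1 lower, with a median of 1.97. Hmox1 averaged 956 ± 152 CPM (SD, n = 4) with ProteinFx, 3.19 below EVFx on the log2 scale (adjusted p = 9.4e-11, edgeR). Prdx1 differed by 2.20, Slc7a11 by 4.21, Srxn1 by 3.61 and Spic by 3.75. Slc40a1 was at 12.6 ± 3.57 CPM with ProteinFx, 3.74 below EVFx, although EVFx itself was below PBS. Ftl1 differed by 2.23. Cholesterol synthesis genes were higher with EVFx in 12 of 24 cases and lower in none.

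Il12b was 5.03 higher with EVFx on the log2 scale, Tnf 2.79, Cxcl2 2.89, Cxcl3 2.88 and Ccl5 1.99, whereas Acod1, Saa3 and Il1b had differences of 0.60, 0.42 and 0.28 and were not called. Their adjusted p were 0.0029, 0.059 and 0.49 by edgeR, so Acod1 missed only the limit on the fold change. Of 48 antiviral effectors 0 were higher DEGs with EVFx by edgeR and 9 were lower (median -0.36), and 5 and 33 had an unadjusted p under 0.05. Among all 10442 genes tested, 3553 were higher and 3453 lower at that unadjusted p by edgeR. Of 15 GTPases 0 were higher and 8 lower, with 0 and 13 by unadjusted p. Ifit1 had a difference of -1.08 and Slfn4 of -2.92. Of CC chemokines and receptors 11 of 15 were lower and 2 higher. Ccl2 and Ccl7 averaged 2787 ± 459 and 3092 ± 326 CPM with ProteinFx, differences of -4.70 and -5.56. Mrc1 was at 598 ± 124 CPM with ProteinFx, -3.46 on the log2 scale, and Cdkn1c, an inhibitor of cyclin-dependent kinases, at 2.18 ± 0.342 CPM against 67.3 ± 31.0 with EVFx. In PBS Cdkn1c was at 61.0 ± 14.8 CPM, and EVFx against PBS, at 0.31, was not called. The low level of Cdkn1c was thus that of ProteinFx.

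**Figure D5:**
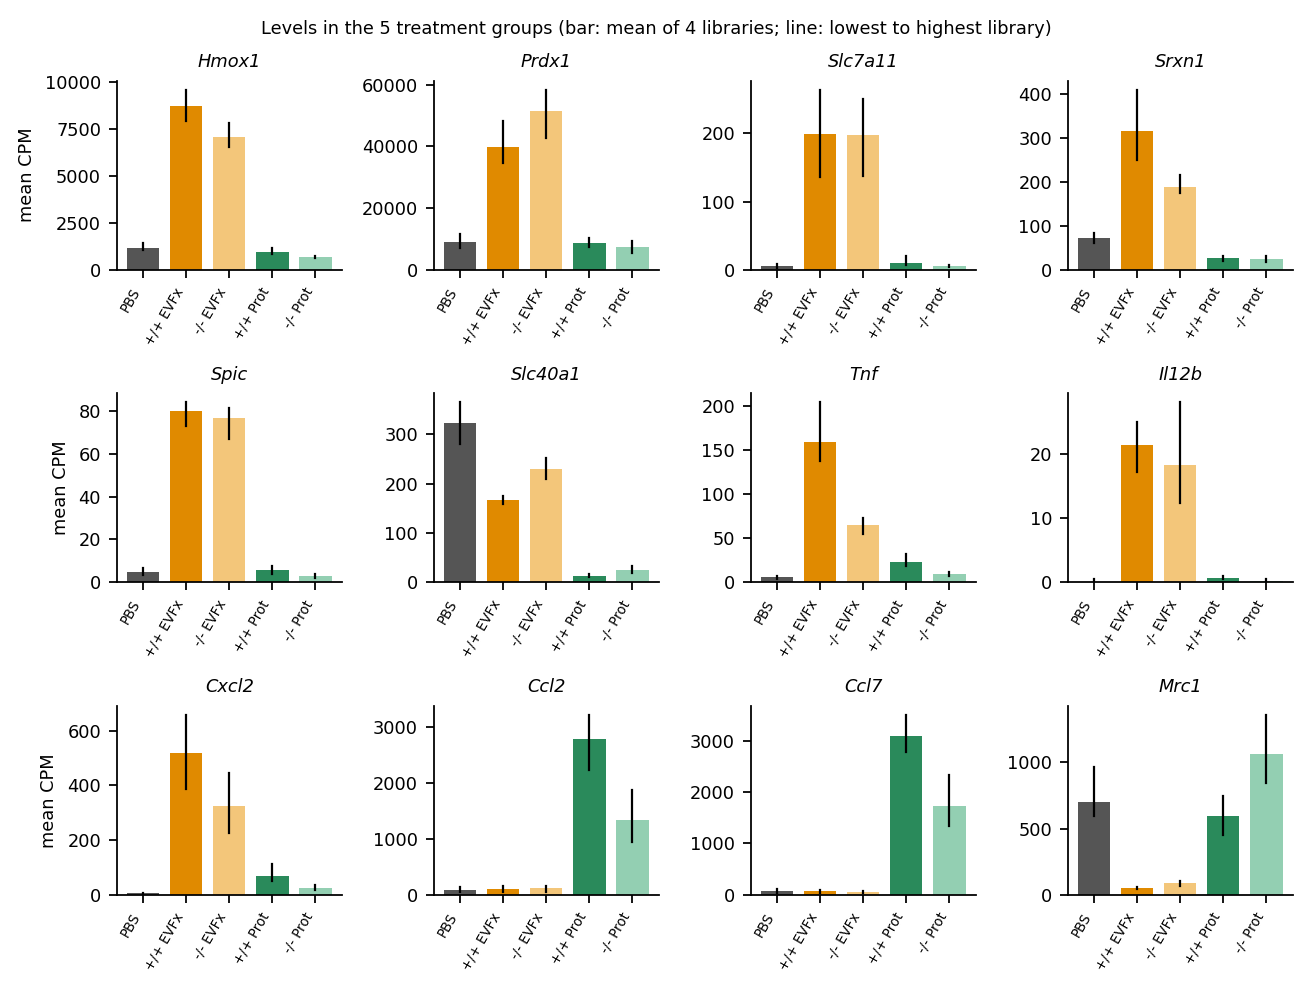
Bars give the mean CPM of 4 libraries and lines run from the lowest to the highest library for 12 genes in PBS, EVFx and ProteinFx of both RNY1 genotypes (+/+ and -/-); each panel has its own axis from 0. Hmox1, Prdx1, Slc7a11 and Spic are high in both EVFx groups, Ccl2 and Ccl7 in both ProteinFx groups, and Mrc1 is low in both EVFx groups.

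The RNY1 genotype of the EVFx donor was compared with the same EVFx libraries. RNY1+/+ EVFx against RNY1-/- EVFx gave 204 higher (1.98%) and 39 lower DEGs (0.378%) of 10321 tested. Tnf averaged 65.3 ± 9.17 CPM (SD, n = 4) with RNY1-/- EVFx, 1.22 below RNY1+/+ EVFx (adjusted p = 0.0002, edgeR), and Il1b 20.7 ± 5.88 CPM, 1.21 below. Hmox1, Clec4e and Mrc1 had differences of 0.23, 0.02 and -0.79 and were not called. Of 48 antiviral effectors 1 was higher and 0 lower by edgeR (11 and 14 by unadjusted p), and of 23 NRF2 and iron genes 1 was higher and 0 lower (9 and 8). An unadjusted p under 0.05 by edgeR was common here: 3078 of all 10321 genes tested were higher and 2949 lower. The list counts by unadjusted p are therefore not read as a result about the lists. Single libraries moved these counts: without RNY1+/+ EVFx replicate 4 there were 85 higher and 14 lower DEGs, and without RNY1-/- EVFx replicates 1, 2 or 3 in turn 82, 62 and 20 lower DEGs. After length and GC trends were removed there were 45 and 46.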

How the data were processed

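Per the paper's methods and the submitters' processing notes, 3′ RNA libraries were trimmed with fastp 0.24.0, aligned to GRCm39 with STAR 2.7.11, collapsed by molecular identifier and counted on the transcript strand with featureCounts of Subread 2.1.1. The authors deposited expected counts, in which a read shared by genes is split, and CPM scaled to each library's total. The 92 rows of spike-in names held 0.000881% to 0.00305% of counts and were left out.

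Counts were rounded and tested with edgeR 4.0.16 (R 4.3.3) within the 8 libraries of each comparison: TMM scaling, a mean deposited CPM of at least 3, filterByExpr, quasi-likelihood test, p-values adjusted over all genes tested. SE was taken as the size of the log2 fold change divided by the root of the F statistic. The edgeR steps were run on simulated data with fewer, balanced changes and a smaller spread between libraries than here, equal for all genes. That checks the steps only and cannot vouch for the calls or the scaling in these data. DESeq2 1.42.0 and limma 3.58.1 (voom) were alternatives. Counting intervals are 95% and exact, and cover counting error only.

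Members and gene lists were chosen with earlier results of these data known. The lists of ribosomal proteins, proteasome subunits and solute carriers, and the ISRE genes whose windows are printed, were chosen after values were seen. Named genes were the 15 largest rises and falls at a mean of at least 10 CPM without overlap between groups, the 10 largest differences in CPM, list members, and the 10 largest in each direct contrast. Some genes are not reported here. Promoter windows are from RefSeq, GRCm38.p6, matched by symbol. Gene lengths and GC content, used in 1 alternative, came from the GRCm38 annotation and were found for 96.99% of genes tested.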

Additional observations from a re-analysis of the deposited data

Results flagged for a closer look

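In the following genes the highest or lowest of the 4 libraries of a group lay so far from the nearest of the other 3 that the gap, divided by the group's range, exceeded Dixon's 95% critical value for 4 samples. The check was made on 520 groups of 4 values and met in 33, and chance alone gives about 1 in 20. PBS replicate 3 held 13 of them, EVFx replicate 4 held 8 and EVFx replicate 3 held 6.

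PBS replicate 3 was the highest PBS library for Spp1 (14989 CPM), Mrc1 (968 CPM), Mki67 (25.4 CPM), Ccna2 (14.4 CPM) and Cd80 (12.1 CPM), and the lowest for Pdgfb (18.1 CPM). In the same library Ssb was at 213 CPM, Tlr13 at 168 CPM, Ifnar1 at 108 CPM, Cxcl16 at 50.1 CPM, Gm37376 at 39.2 CPM, Panx1 at 12.1 CPM and Il12b at 0.457 CPM. Fth1-ps (2468 CPM) and Ctsc (214 CPM) stood apart in PBS replicate 4, Cxcl10 (2.66 CPM) and Lss (6.56 CPM) in PBS replicate 1, and Stat2 (65.7 CPM) in PBS replicate 2.

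EVFx replicate 4 stood apart for Ftl1 (2802 CPM), Gm56125 (2121 CPM), Casp4 (122 CPM), Mfge8 (68.3 CPM), Gsdmd (58.6 CPM), Ftl1-ps1 (54.9 CPM), Relb (51.5 CPM) and Cd4 (2.05 CPM). EVFx replicate 3 did for Tap1 (149.6 CPM), S100a8 (133.6 CPM), Ebi3 (109.5 CPM), Slc2a6 (56.7 CPM), Cfb (33.1 CPM) and Pfkfb3 (29 CPM), and EVFx replicate 1 for Slco2b1 (0.129 CPM).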

How the results depend on the processing

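For 259 named genes under 24 alternatives, 5972 of 6063 log2 fold changes of EVFx against PBS kept their side of the thresholds, 46 lost the call, 45 gained one and no called value changed sign. Values that were not called could, as Ftl1 did with library totals, from 0.09 to -0.09. When 1 library was left out, 12 calls were lost, in Apoe, C1qb, C1qc, Gpnmb and Cdkn1a. Of 1958 list counts 140 moved by over 1.5 times.

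EVFx against PBS (890 higher, 885 lower) gave 1409 and 1596 DEGs with no filter, 667 and 553 at a mean of at least 10 CPM, 2347 and 2462 by adjusted p alone, 569 and 430 by the glmTreat test of edgeR against a log2 fold change of 1, and 427 and 507 among genes with whole counts only. Leaving out 1 library at a time gave 882 to 939 higher and 848 to 979 lower. DESeq2 gave 897 and 885, and limma voom 907 and 836.

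EVFx against ProteinFx (712 and 701) gave 1460 and 1150 with no filter, 461 and 404 at 10 CPM, 3361 and 3246 by adjusted p alone, 254 and 297 by glmTreat, and 381 and 392 among whole-count genes. Leaving out 1 library gave 592 to 796 higher and 606 to 751 lower. With length and GC trends removed there were 475 and 557, against 677 and 668 for the same genes with trends kept.

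RNY1+/+ against RNY1-/- EVFx (204 and 39) gave 298 and 22 with library totals, 288 and 78 with filterByExpr only, 403 and 227 with no filter, 96 and 7 at 10 CPM, 2744 and 2633 by adjusted p alone, and 92 and 24 among whole-count genes. By glmTreat of edgeR there were 0 and 0, with 48 and 5 at an unadjusted p under 0.05, and by DESeq2 and limma voom 194 and 44, and 190 and 29. With length and GC trends removed there were 45 and 46, against 188 and 30 for the same genes with trends kept, a setting added after seeing the data. Leaving out 1 library gave 85 to 287 higher and 14 to 82 lower. The whole-count and 10 CPM settings test fewer genes. For the other settings the cause was not tested.

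With the replicate block, the number as an added term, there were 905 and 866 DEGs against PBS, 717 and 713 against ProteinFx and 186 and 39 against RNY1-/- EVFx. Deviations of same-numbered PBS and EVFx libraries correlated at 0.0572, -0.286, 0.498 and -0.0163 over 7844 genes (genes do not count as replicates), and not every library was closest to its own number, so the numbers were not taken as a pairing. The block left Apoe, at -0.94, without a call. At most 3 counts, or 0.362 to 0.686 CPM, could not be told from 0.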
